A study of Mus musculus with 7 samples.

Results

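The genes that build the calcium channels and calcium release channels of skeletal muscle were followed in the quadriceps of AR113Q mice, a knock-in model of spinal and bulbar muscular atrophy. They are Cacna1s, Cacnb1, Cacna2d1, Cacng1 and Cacng6, subunits of the dihydropyridine receptor, the adaptor Stac3, the ryanodine receptors Ryr1 and Ryr3, and Stim1 and Orai1 of store-operated calcium entry. All probes that the array design or the current RefSeq symbol assigns to these 10 genes were taken, which gave 15 of the 39429 probes and 10 of the 31131 gene names measured. In AR113Q muscle 8 of the 15 probes, belonging to 7 of the 10 genes, were called lower, where 21.6% of all probes tested were, and 0 were called higher, where 22.2% of all probes were. Of the 14 probes well above background on every array 7 were lower, beside 21.2% of all such probes, in 6 of 9 genes; the probe left out is that of Ryr3, which entered the test through WT alone. Cacng6 fell to 26.1% of the WT level, Orai1 to 27.6% with its brighter probe, and Cacng1 and Stac3 to 42.2% and 48.1%, while Cacna2d1, Stim1 and the pore subunit Cacna1s did not pass the test.

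RNA of quadriceps muscle from C57BL/6 mice aged 3 months (90 days in the design text) was hybridized to single-dye Agilent expression arrays, 4 from WT and 3 from AR113Q mice. AR113Q mice carry a knocked-in androgen receptor with an expanded CAG repeat. The labels name the controls WT, while the study's text describes in 1 place a control line with a humanized receptor of normal repeat length, and the design text writes the mutant genotype as AR113Q-NCD without explaining the last 3 letters. All arrays had 1 scan date and lay on 5 slides, of which slide 2 held WT replicate 2 and AR113Q replicate 1.

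In a muscle fiber the dihydropyridine receptor sits in the transverse tubule and senses the action potential. It is coupled to RYR1, the calcium release channel of the sarcoplasmic reticulum, and STAC3 is needed for that coupling, which is how excitation leads to contraction. When the reticulum runs low on calcium, its sensor STIM1 opens ORAI1, a calcium channel of the plasma membrane that allows refilling from outside the fiber.

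Each array probe is an oligonucleotide of 60 bases, and the value of a gene is the brightness of cRNA bound to it. The probes of 4 dihydropyridine receptor subunits and of Ryr1 are shown, 1 per gene, because they are the sequences that these channel parts were read by; of Cacna1s it is the dimmer of its probes. They are written 5′ to 3′ in lower case, with no base marked.
Cacna1s A_55_P2169923: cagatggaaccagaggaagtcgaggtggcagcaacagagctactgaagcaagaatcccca
Cacnb1 A_55_P2012563: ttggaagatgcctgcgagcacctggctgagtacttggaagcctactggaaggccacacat
Cacng1 A_51_P210286: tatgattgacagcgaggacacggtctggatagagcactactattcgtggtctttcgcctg
Cacng6 A_55_P2182006: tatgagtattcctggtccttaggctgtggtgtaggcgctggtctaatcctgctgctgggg
Ryr1 A_52_P391110: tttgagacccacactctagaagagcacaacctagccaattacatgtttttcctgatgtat
Positions below follow the mm9 annotation of the array, which placed 14 of the 15 probes on a chromosome and gave no position for the Ryr1 probe. Exon and UTR annotation of that build was not used here.

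Values are log2 of the background-subtracted intensity after quantile normalization, each array is 1 mouse, and a fold change is AR113Q minus WT on that scale. A difference is called at a limma p of at most 0.05 after Benjamini-Hochberg adjustment over the 20991 probes that cleared the background on 3 or more of the 7 arrays. All 15 member probes passed that filter, 14 of them on all 7 arrays, and 0 spots were saturated. Brightness depends on the probe, so levels are compared between genotypes and not between genes. In whole muscle, fewer cells of a type and less RNA per cell cannot be told apart.

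Cacna1s encodes the pore and voltage sensor of the dihydropyridine receptor, and its change was small. The brighter probe, A_51_P103541 (chr1:138016020-138016079, plus strand), read 16.18, 16.05, 15.99 and 16.09 in WT replicates 1 to 4 and 15.49, 15.78 and 15.89 in AR113Q replicates 1 to 3. The second probe, A_55_P2169923 (chr1:138015618-138015677, plus strand), read 13.34, 13.19, 13.06 and 13.04 in WT and 12.48, 12.38 and 13.00 in AR113Q. With both probes every AR113Q array lay below every WT array, by a gap of 0.10 and 0.05. The first probe differed by -0.35 (SE 0.16, 95% interval -0.71 to 0, adjusted p = 0.099), that is AR113Q at 78.2% of WT. The second differed by -0.54 (SE 0.19, 95% interval -0.97 to -0.10, adjusted p = 0.0506), at 69.0% of WT. Neither was called, and the calls turned on the processing: the first probe was called under 5 of 21 alternatives and the second under 7 of 19, among them the authors' normalized values (adjusted p = 0.0296 and 0.0382) and, for the second, leaving out AR113Q replicate 3 (-0.72, adjusted p = 0.0105).

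Cacnb1 encodes the cytoplasmic β subunit, which brings the pore to the membrane. Its probe (chr11:97866536-97866595, minus strand) read 11.98, 11.77, 11.90 and 11.87 in WT and 10.89, 11.23 and 11.20 in AR113Q. The genotypes lay apart by 0.54, with the arrays of each within a narrow range. Cacnb1 fell by 0.77 (SE 0.15, 95% interval of the fold change -1.12 to -0.42), to 58.7% of WT (adjusted p = 0.00492).

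Cacna2d1 encodes the extracellular α2δ subunit, and neither of its probes was called. The probe A_55_P1988699 (chr5:15880152-15880211, plus strand) read 12.24, 12.26, 12.28 and 12.37 in WT and 11.91, 12.37 and 11.88 in AR113Q. The probe A_51_P498720 (chr5:15876550-15876609, plus strand) read 11.87, 11.57, 12.06 and 11.82 in WT and 11.18, 11.45 and 11.59 in AR113Q. The genotypes overlapped with both probes, through AR113Q replicate 2 with the first and AR113Q replicate 3 with the second. The differences were -0.24 (SE 0.17, 95% interval -0.63 to 0.15, adjusted p = 0.28) and -0.42 (SE 0.18, 95% interval -0.83 to -0.01, adjusted p = 0.091), so that a fall to about the extent seen for Cacnb1 lay within the interval of the second probe.

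The γ subunits, membrane-spanning accessory proteins of the channel, moved further. Cacng1 encodes the γ subunit long known as part of the skeletal muscle receptor, and its probe (chr11:107565096-107565155, minus strand) read 12.71, 12.06, 12.39 and 12.67 in WT and 11.48, 11.28 and 10.88 in AR113Q. Cacng1 fell by 1.25 (SE 0.22, 95% interval of the fold change -1.76 to -0.73), to 42.2% of WT (adjusted p = 0.00304). Its groups lay apart by 0.57, and on slide 2, where WT replicate 2 was the lowest WT array, the difference was -0.57.

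Cacng6 encodes a related γ subunit that is also found in skeletal muscle. Its probe (chr7:3435518-3435577, plus strand) read 11.01, 10.46, 10.63 and 10.73 in WT and 8.59, 8.80 and 8.92 in AR113Q. A gap of 1.54 separated the genotypes, wider than the range within either of them. Cacng6 fell by 1.94 (SE 0.18, 95% interval of the fold change -2.35 to -1.53), to 26.1% of WT (adjusted p = 0.000213), and by 1.87 between the mice that shared slide 2.

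Stac3, the adaptor that couples the dihydropyridine receptor to RYR1, was measured by 1 probe (chr10:126945799-126945858, plus strand). It read 15.06, 14.62, 14.87 and 14.77 in WT and 13.22, 14.19 and 13.91 in AR113Q. AR113Q replicate 1 was the lowest, and all 3 AR113Q arrays were below WT. Stac3 fell by 1.05 (SE 0.24, 95% interval of the fold change -1.62 to -0.49), to 48.1% of WT (adjusted p = 0.00945).

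Ryr1 encodes the release channel of skeletal muscle. Its probe, which starts at base 15052 of the RefSeq transcript, read 14.51, 14.32, 14.07 and 14.28 in WT and 13.78, 13.52 and 13.36 in AR113Q. The groups did not overlap, with a gap of 0.29. Ryr1 fell by 0.74 (SE 0.17, 95% interval of the fold change -1.14 to -0.34), to 59.8% of WT (adjusted p = 0.0102).

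Ryr3, the ryanodine receptor of many tissues that adult limb muscle holds little of, was dim. Its probe (chr2:112471537-112471596, minus strand) was well above background on 3 of 4 WT arrays and on 0 of 3 AR113Q arrays, so only a bound could be had, and AR113Q was at least 1.7-fold lower on the background-subtracted scale. That bound sets the WT mean against the higher, on each AR113Q array, of the probe's own value and the lowest signal well above background. The measured values were 4.32, 4.14, 4.28 and 4.81 in WT and 1.94, 1.65 and 1.85 in AR113Q. The probe entered the test through its WT arrays alone, and its call (adjusted p = 0.000109) was lost with the authors' normalized values (adjusted p = 0.0546). Where background was treated otherwise the difference was smaller than that bound, at -0.41 with normexp correction and -0.35 without subtraction. It was also smaller with the authors' values, at -0.19, and whether background was subtracted from those is not given.

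**Figure D1:**
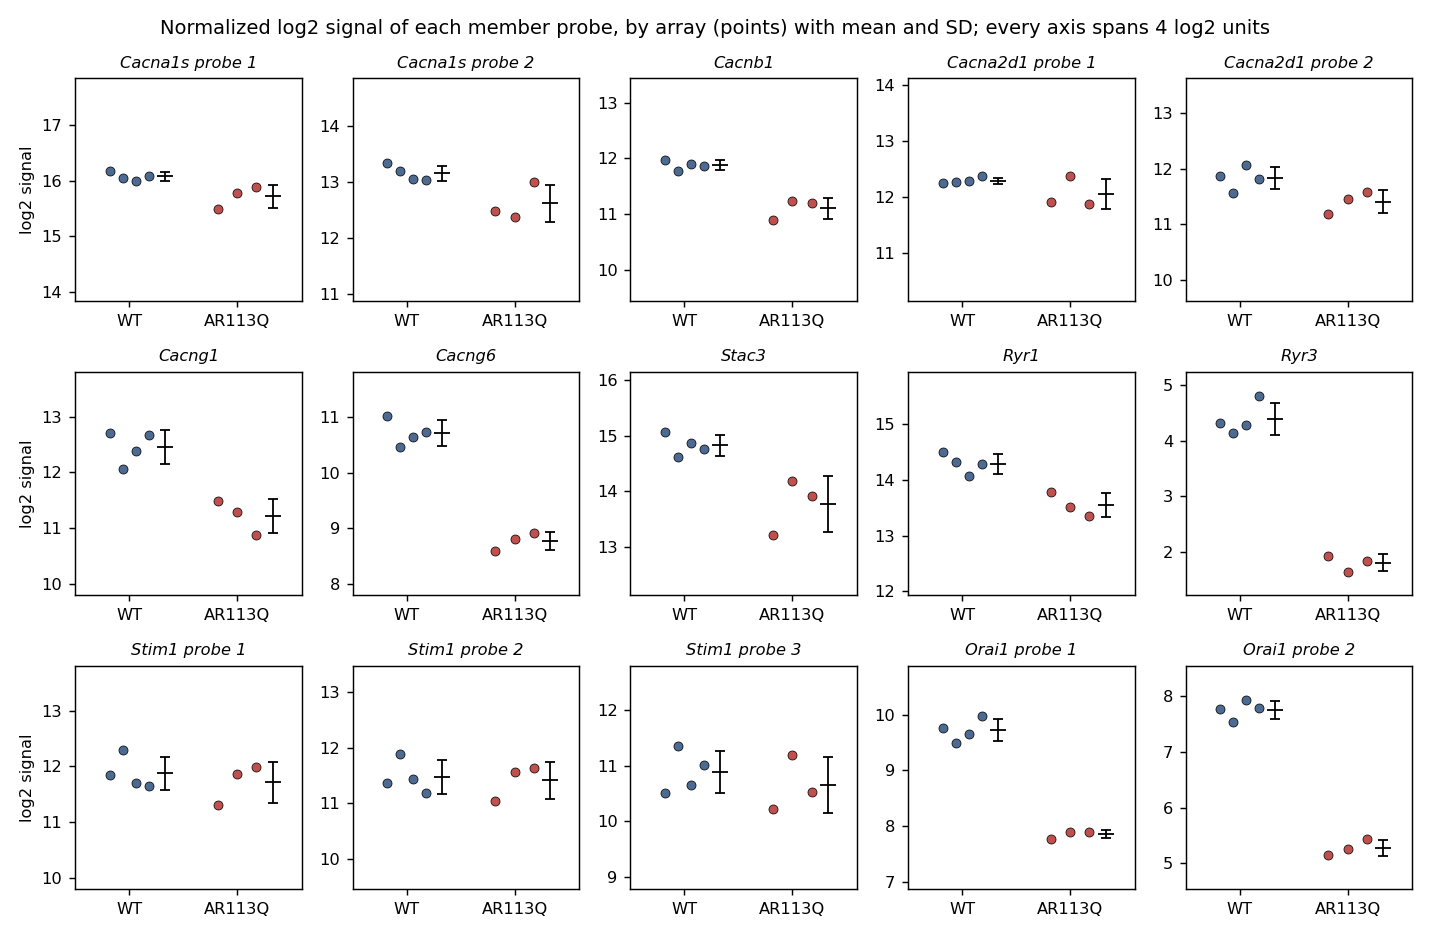
Normalized log2 signal (vertical axis, a window of 4 log2 units in every panel) of the 15 member probes in each WT (blue, n = 4) and AR113Q (red, n = 3) array, with mean and SD beside the points; probe numbers follow the order in the text. Cacng6 and both Orai1 probes show wide gaps between the genotypes, Cacna1s narrow ones, and the Stim1 probes overlap.

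Of the store-operated entry pair, the sensor did not pass the test. The Stim1 probe A_55_P1969750 (chr7:109585303-109585362, plus strand) read 11.85, 12.30, 11.70 and 11.64 in WT and 11.30, 11.86 and 11.99 in AR113Q. The probe A_55_P2005982 (chr7:109585756-109585815, plus strand) read 11.37, 11.89, 11.44 and 11.19 in WT and 11.04, 11.56 and 11.64 in AR113Q. The probe A_55_P2022342 (chr7:109585312-109585371, plus strand), which shares 51 bases with the first and is no independent measure, read 10.52, 11.35, 10.66 and 11.01 in WT and 10.23, 11.20 and 10.53 in AR113Q. The genotypes overlapped with all 3 probes: WT replicate 2 was the highest WT array and AR113Q replicate 1 the lowest AR113Q array each time, and these mice shared slide 2. The differences were -0.15 (95% interval -0.69 to 0.39, adjusted p = 0.626), -0.06 (95% interval -0.57 to 0.46, adjusted p = 0.854) and -0.23 (95% interval -0.89 to 0.43, adjusted p = 0.542). Without AR113Q replicate 1 they turned to 0.06 and 0.13 for the first and second probe, and without WT replicate 2 to 0.08 for the second, so no direction can be given for Stim1. On slide 2 alone the differences lay between -1.12 and -0.85 for the 3 probes, with the first in between.

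Orai1, the channel that STIM1 opens, fell with both of its probes. The probe A_55_P2147276 (chr5:123479844-123479903, plus strand) read 9.76, 9.49, 9.65 and 9.97 in WT and 7.77, 7.90 and 7.90 in AR113Q. The probe A_66_P106072 (chr5:123480377-123480436, plus strand) read 7.77, 7.54, 7.93 and 7.78 in WT and 5.15, 5.26 and 5.43 in AR113Q. The AR113Q arrays were close to each other and lay 1.58 and 2.11 below the lowest WT array. The first probe fell by 1.86 (SE 0.16, 95% interval of the fold change -2.23 to -1.48, adjusted p = 0.00018), to 27.6% of WT. The second fell by 2.47 (SE 0.16, 95% interval of the fold change -2.84 to -2.11, adjusted p = 7.27e-05), to 18% of WT, and the difference was -1.33 with normexp correction, -1.41 without background subtraction and -0.97 with the authors' normalized values. Both probes were called in those settings too, but the size at the dimmer probe depended on how background was treated.

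Counted together, 8 of the 15 member probes (53.3%) were called lower, beside 21.6% of all probes tested, and 0 were called higher, beside 22.2%. Because Ryr3 passed the filter through WT alone, the same counts were taken over probes well above background on all 7 arrays, of which the members held 14 and the array 17108. Of the 14 probes 7 (50%) were lower, beside 21.2% of all such probes. Of these 7, those for Cacng1, Cacng6, Stac3 and the pair for Orai1, 5 in all, also had a log2 fold change of -1 or below, beside 10.9% of such probes and 12.6% of all probes tested, and 0 had one of 1 or above, beside 12.2% of all tested. In 9 of the 14 no AR113Q array overlapped WT, all of them lower, beside 24.6% of such probes and 24.2% of all probes tested that did not overlap and were lower, and 25.4% of all tested that did not overlap and were higher. The median fold change of the 14 was -0.64, against 0.01 over all probes measured on every array. Probes of 1 gene share a transcript, and the genes were chosen for their shared role, so these shares describe the set and are not a test of it.

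**Figure D2:**
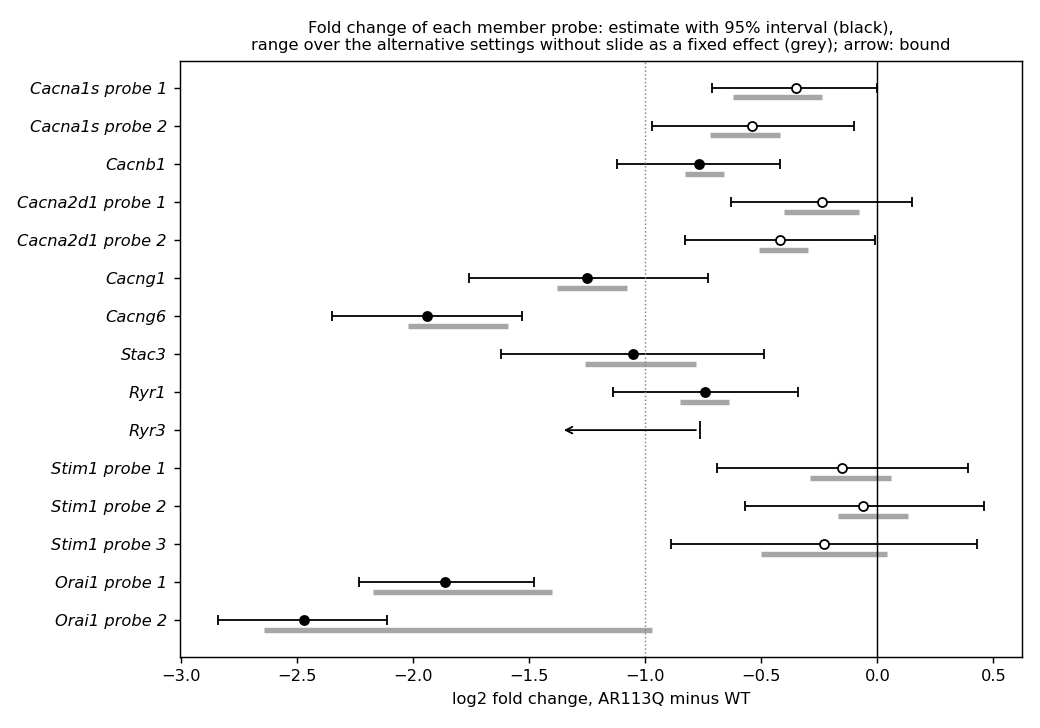
Log2 fold change (horizontal axis, AR113Q minus WT) of the member probes with its 95% interval in black, filled points for an adjusted p of at most 0.05 and open points for the rest; grey bars give the range over the alternative settings other than slide as a fixed effect, the dotted line marks -1, and the arrow for Ryr3 starts at its bound. The grey bar of the second Orai1 probe runs from -2.64 to -0.97, while Cacng6 stays between -2.02 and -1.59.

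The difference between the mice on slide 2 was below 0 for all 15 member probes. It was -0.55 and -0.70 for the Cacna1s probes, -0.87 for Cacnb1, -0.36 and -0.39 for Cacna2d1, -1.40 for Stac3, -0.54 for Ryr1, and -1.71 and -2.39 for Orai1. With slide as a fixed effect the genotype is estimated from that pair alone and 1 residual degree of freedom is left. In that fit 0 of the 15 member probes, and 0 of the 20964 probes it could test, were called, and 9 member probes had an unadjusted p of at most 0.05. The smallest adjusted p among the members there was 0.0509, for an Orai1 probe. With slide as a random block 8 member probes were called lower. The correlation within slides was estimated there at -0.11, from slides 2 and 4, and slide 4 held WT replicates 3 and 4 alone. That count therefore cannot show that slide had no effect.

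Whether the parts of 1 complex moved by unequal amounts was examined within arrays, by subtracting the value of the brightest Cacna1s probe from that of each partner on the same array and comparing the genotypes. In all 7 pairs were compared with an exact two-sided permutation test over 35 arrangements, whose smallest possible p is 0.0286, or 0.04 after adjustment over the 7 pairs. Relative to Cacna1s, Cacng6 was lower by -1.58 in AR113Q, Cacng1 by -0.89, Stac3 by -0.70 and Cacnb1 by -0.42, each with no overlap between genotypes and the smallest p the design allows. The spread within a genotype was widest for Cacng1 (SD 0.26 in WT and 0.50 in AR113Q) and narrower for Cacng6 (SD 0.17 and 0.04). Ryr1 relative to Cacna1s differed by -0.38 and overlapped (p = 0.143, adjusted p = 0.167, exact permutation), and Cacna2d1 differed by 0.12 (p = 0.486, exact permutation). Orai1 relative to Stim1 was lower by -1.70 in AR113Q (SD 0.48 in WT and 0.29 in AR113Q), again with no overlap and the smallest possible p. In an alternative chosen after seeing the data, the other Cacna1s probe served as the reference. Then Cacng6 still did not overlap (-1.40, adjusted p = 0.1, exact permutation), but Cacng1 (-0.71), Stac3 (-0.52) and Cacnb1 (-0.24) overlapped between genotypes and 0 of the 6 partners of Cacna1s passed the adjusted threshold. The exact p of Cacng6 was the smallest possible, 0.0286, with either reference, and its adjusted p moved because fewer of the other pairs reached that value, whereas the overlap of Cacng1, Stac3 and Cacnb1 with WT depended on which Cacna1s probe was used. Against the other Stim1 probes, Orai1 was lower by -1.80 and -1.63 with no overlap (adjusted p = 0.04, exact permutation).

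**Figure D3:**
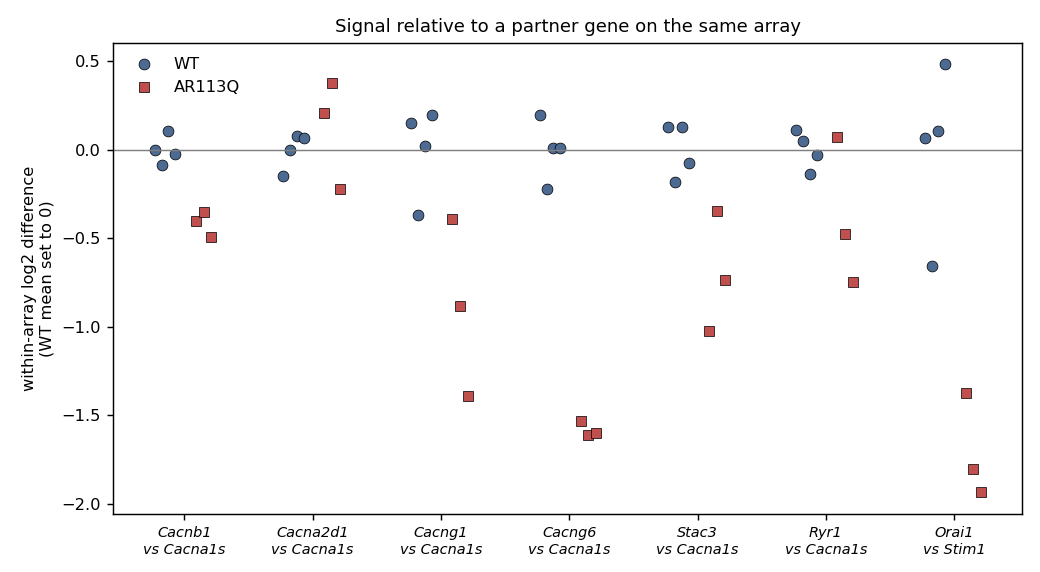
Difference in log2 signal between a gene and its partner on the same array (vertical axis, with the WT mean of each pair set to 0) for the 7 pairs, with the brightest probe of each gene, in WT (blue circles, n = 4) and AR113Q (red squares, n = 3). The AR113Q points of Cacng6 lie near -1.58 with little spread, those of Cacna2d1 fall on both sides of 0, and 1 AR113Q array of Ryr1 lies within WT.

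The genes around these channels were counted in 4 lists. The first held the pore and accessory subunits of other voltage-gated calcium channels, most of which are channels of nerve, heart or endocrine cells. Of 21 genes 11 had a probe past the filter, with 3 lower, 2 higher and 6 not called; by probe 4 of 15 (26.7%) were lower and 2 (13.3%) higher, beside 21.6% and 22.2% of all probes. Over the 3 genes with a probe above background on every array, 0 were called. The lower genes were Cacna1g, the pore of a low-voltage-activated channel, and Cacna2d3 and Cacna2d4, α2δ subunits. The higher ones were Cacna1i, also a low-voltage-activated pore, and Cacnb4, a β subunit. All 5 were dim, their called probes being above background on 4 or 5 of the 7 arrays. None of these probes would have passed the filter without the genotype in which it was higher. Their adjusted p values are therefore given as a description and not as support. Cacna2d4 lay between 5.86 and 5.93 in WT, cleared the background on 0 of 3 AR113Q arrays, and was at least 4.68-fold lower there. This bound and that of Cacna1g are on the background-subtracted scale. Other background treatments, which made the Ryr3 difference smaller than its bound, were not examined for either. Cacna1g was at least 3.29-fold lower with 1 probe, which cleared it on 0 of 3 AR113Q arrays as well, and ranged from 4.81 to 5.83 in WT and from 3.84 to 4.88 in AR113Q with the other (above background on 3 of 4 WT and 1 of 3 AR113Q arrays, adjusted p = 0.0231). Cacna2d3 was above background on 4 of 4 WT and 1 of 3 AR113Q arrays (5.36 to 5.67 in WT and 3.33 to 3.64 in AR113Q, adjusted p = 0.000115), Cacnb4 on 1 of 4 WT arrays and all 3 AR113Q arrays (1.76 to 4.34 in WT and 5.42 to 6.72 in AR113Q, adjusted p = 0.00379, with no fold given because it entered the test through AR113Q) and Cacna1i on 2 of 4 WT and all 3 AR113Q arrays (3.65 to 5.47 in WT and 5.53 to 6.47 in AR113Q, adjusted p = 0.0257). The second Cacna1i probe differed by 0.01 and was not called.

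Among other intracellular release channels and STAC adaptors, 1 of 4 measured genes, and 1 of 4 probes (25%, beside 21.6% of all probes), was called lower. It was Itpr1, an inositol trisphosphate receptor of the reticulum, which ranged from 11.27 to 11.80 in WT and from 8.29 to 8.67 in AR113Q. Itpr1 fell by 2.99 (SE 0.19, adjusted p = 6.03e-05), and no AR113Q array came near WT. The cardiac release channel Ryr2 did not pass the filter on dim probes.

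Of other genes of store-operated entry, 7 of 10 were measured, with 1 lower, 2 higher and 4 not called. By probe 1 of 12 (8.33%) was lower and 2 (16.7%) higher, beside 21.6% and 22.2% of all probes. Orai2, a homolog of Orai1, lay between 4.69 and 6.26 in WT and between 6.57 and 7.27 in AR113Q. One Orai2 probe rose by 1.27 (SE 0.37, adjusted p = 0.0238), and a second differed by 0.95 and was not called (adjusted p = 0.0872). The other called genes, given here because the counts are small, were Stimate, a promoter of STIM1 activation (0.62, adjusted p = 0.0216, with the brighter of its probes at -0.10 and not called, adjusted p = 0.686), and Cracr2b, a regulator of the Orai channels (-0.48, adjusted p = 0.0436, with a second probe at -0.10 and not called, adjusted p = 0.711).

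The list of regulators that bind the dihydropyridine receptor or RYR1 was counted by gene and by probe. Of 24 genes 23 were measured, 14 of them lower with 1 or more probes, 1 higher, 1 with probes in both directions and 7 not called. By probe 23 of 45 (51.1%) were lower and 2 (4.44%) higher, beside 21.6% and 22.2% of all probes, and over probes above background on every array 21 of 40 (52.5%) were lower, beside 21.2%. Casq1, the calcium-binding protein of the sarcoplasmic reticulum, ranged from 13.75 to 14.11 in WT and from 9.94 to 11.76 in AR113Q and fell by 3.05 (SE 0.37, adjusted p = 0.000607). Jph2, a junctophilin that ties the transverse tubule to the reticulum, fell by 2.48 (SE 0.21, adjusted p = 0.00017).

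In the same list Homer1, a scaffold protein, was called lower with 4 probes and fell by 2.28 with the one that changed most (adjusted p = 0.000168), and the fifth probe, at -1.42, was not called (adjusted p = 0.0503). Rem1, a small GTPase that inhibits voltage-gated calcium channels, cleared the background on 0 of 3 AR113Q arrays and entered the test through WT alone. It was at least 2.33-fold lower on the background-subtracted scale, and other background treatments were not examined for it. Asph, whose transcripts encode junctin and junctate as well as an aspartate hydroxylase, fell by 2.82 and 1.95 with a pair of probes and rose by 0.96 with another (adjusted p = 0.00212, 0.00409 and 0.00346), so its probes moved in opposite directions; the remaining probe, at 0.48, was not called (adjusted p = 0.0687). The gene called higher was Ahnak, a scaffold that binds the channel's β subunit, named here because it was the 1 gene in that direction although its change was under 1. It rose with 1 of 4 probes (0.89, adjusted p = 0.00679), while the other 3 differed by 0.02 to 0.36 and were not called, the brightest at 0.02 (adjusted p = 0.927).

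**Figure D4:**
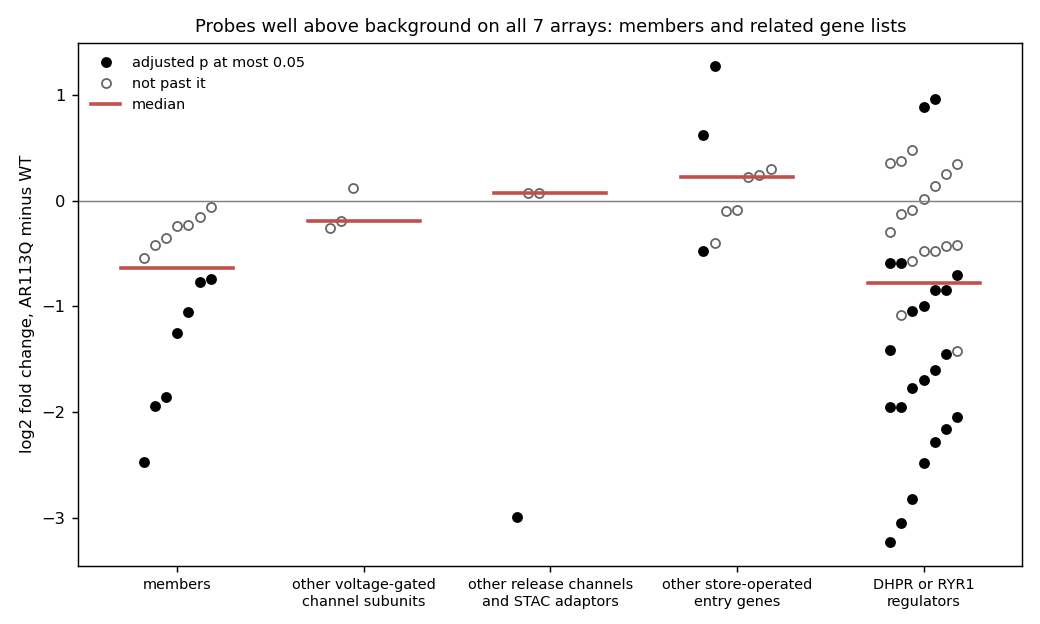
Log2 fold change (vertical axis, AR113Q minus WT) of every probe well above background on all 7 arrays for the members and for the 4 lists of related genes, with filled points for called probes and red lines at each median. The medians are -0.64 for the members, -0.19, 0.07 and 0.22 for the first 3 lists and -0.77 for the regulators, whose lowest points lie below -3.

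Markers of the cells in the muscle were counted by gene beside these results, lower or higher with 1 or more probes. Of all probes 21.6% were lower and 22.2% higher, but those are shares by probe. With each gene read by its brightest probe alone, 3745 of 16577 genes were lower and 3484 higher. Of 9 myofiber genes 3 were lower and 0 higher. By probe 6 of 13 were lower and 0 higher, with a median fold change of -0.57. Of the member probes above background on every array 7 of 14 were lower, with a median of -0.64. The summed myofiber signal, to which the brightest genes add most, ran from 851487 to 1011692 in WT and from 678898 to 989951 in AR113Q, so that the ranges overlapped. Of 8 fast fiber genes 2 were lower, and by probe 2 of 10, with a median fold change of -0.12. Their sums were 957493 to 1064585 in WT and 915432 to 954427 in AR113Q, and these ranges did not overlap. Of 7 slow fiber genes 0 were called, but the sum was high in WT replicates 2 and 3 (30916 and 32372) and AR113Q replicate 3 (81249) and between 643 and 1445 in the other mice.

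Of 7 measured genes that rise in denervated muscle 3 were higher and 1 lower, and their sum was 1632 to 2333 in WT and 6309 to 7251 in AR113Q. Nerve and Schwann cell genes (2 of 8 lower, 1 higher) summed to 2689 to 5701 in WT and 1902 to 2739 in AR113Q, with Nefl not above background on any array. Smooth muscle and pericyte genes (3 of 8 lower) summed to 14605 to 16313 and 8667 to 14323, endothelial genes (2 of 7 lower, 1 higher) to 14950 to 17771 and 12680 to 15026, and fibroblast genes (4 of 6 lower) to 103582 to 126358 and 75044 to 105725. Macrophage and lymphocyte genes (4 of 7 lower) summed to 5765 to 10504 and 3845 to 4684, and adipocyte genes (3 of 5 lower) to 57588 to 95816 and 37106 to 44941. Erythrocyte genes (0 of 3 called) reached 213979 in WT replicate 4 and lay between 45163 and 57673 in AR113Q. The part of any of these in the fall of the channel genes was not tested.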

How the data were processed

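Quadriceps RNA of 4 WT and 3 AR113Q mice was measured, 1 array per mouse. The authors extracted the spots with Agilent Feature Extraction 10.7.3.1 and deposited an intensity per spot, background-subtracted and not normalized between arrays, for 43020 non-control spots. They also deposited a log2 table, described as quantile normalized, of 18592 probes (column medians 8.92 to 8.93), which holds all 15 member probes and followed the mean spot signal (r of 0.991 to 0.999 across probes); it served as an alternative, and whether its background was subtracted is not given in the sources used here. Subtraction spreads the log2 values of dim spots.

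Here outlier spots (94 to 151 per array) were left out, log2 intensities were quantile normalized, replicate spots were averaged to 1 value per probe, and probes that cleared the background on 3 or more of the 7 arrays were kept (47.6% to 55.8% of probes were above it per array). The fit used lmFit and eBayes of limma 3.58.1 (R 4.3.3) with genotype as the single factor and Benjamini-Hochberg adjustment over 20991 probes. Current symbols were taken through RefSeq accessions of GRCm38.p6, which matched 28330 probes. Within-array differences were tested with scipy 1.17.1. For a probe not above background in a whole genotype the fold is given as a bound. The number of arrays limits the precision. Whether the mice of these arrays shared litters is not stated.

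The genes named are all members and, in each related list, at most 6 that were called (adjusted p of 0.05 or less) and moved by 1 or more on the log2 scale; exceptions are said to be so, and some genes that meet the rule or were measured are not reported here. The members and lists were chosen with earlier results of these data known. On simulated data 200 of 20948 probes were changed. A log2 change of 1 was recovered in 20.5% and a change of 2 in 80.5% of changed probes, with 3 and 2 false calls. In the real data 4538 probes were called lower and 4661 higher, and the p that passes the adjustment depends on that share. The recovery rates of the simulation therefore do not carry over to the real comparison. The alternatives covered background correction, scaling, filters, outlier spots, eBayes trend, array weights, slide, replicate block, gene-level values and each array left out.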

Additional observations from a re-analysis of the deposited data

How the results depend on the processing

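Under the 21 alternatives 0 member probes were called higher. The count of member probes called lower (8, the Ryr3 probe with its bound included) was 8 to 10 under every probe-level alternative except slide as a fixed effect, where it was 0, as it was for all probes in that fit, and a fold threshold of 1 on the log2 scale, where it was 6; it was 8 to 9 with each array left out in turn. At the gene level 7 of 10 genes were lower, by the brightest probe or by the mean, Ryr3 among them. With the calls of the main fit, 6 of 9 genes were lower over probes above background on all arrays. When the limma fit and its adjustment were made over those probes alone, 8 of 14 member probes were lower. The second Cacna1s probe was then among them (-0.54, adjusted p = 0.0385). The replicate numbers did not pair the mice (correlations of deviations of 0.04, -0.02 and 0.16 for equal numbers), and with the replicate number as a block 8 member probes were lower, while the count over all probes went from 4538 to 3541 lower and from 4661 to 3684 higher. The Stim1 probes changed sign, none past the threshold: A_55_P2005982 was 0.05 with 75th percentile scaling, 0.01 with array weights, 0.08 without WT replicate 2 and 0.13 without AR113Q replicate 1, A_55_P2022342 was 0.04 with array weights, and A_55_P1969750 was 0.06 without AR113Q replicate 1. With each array left out, A_55_P1969750 ranged from -0.29 to 0.06 and A_55_P2005982 from -0.17 to 0.13. The 75th percentile scaling moved the median of all probes to -0.05. Of the 7 within-array differences, those of Cacnb1, Cacng1 and Stac3 overlapped between genotypes with the other Cacna1s probe as reference, an alternative chosen after seeing the data, and that of Cacng6 did not (-1.40, exact permutation p = 0.0286, adjusted p = 0.1). Stac3 ranged from -1.26 to -0.78 without slide as a fixed effect, so a fold threshold of 1 was not always met. In simulation, with 200 of 20948 probes changed, changes of 1 on the log2 scale often went uncalled. Far more probes were called in the real data, so that rate does not describe them.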

Other observations

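Promoter windows of 250 bases before to 50 after the start (RefSeq, GRCm38.p6) were held for 7 of the 10 genes, 8 windows in all; Cacng1, Stac3 and Ryr3 had no entry. The E-box CAGCTG, which reads the same on both strands, was in 2 of the 8 windows, those of Cacna1s (starting at -123) and Orai1 (at -246), and in 16.3% of 32851 windows of the same length. The androgen response half-site TGTTCT, on either strand, was in 0 of the 8 and in 19.0% of all windows, and the MEF2 motif was in 0 of the 8 and in 3.19%. These matches describe letters in a short window and say nothing of binding. The Orai1 window (chr5:123014824-123015123, plus strand) is shown because Orai1 fell furthest with more than 1 probe, with the match in capitals.
Orai1: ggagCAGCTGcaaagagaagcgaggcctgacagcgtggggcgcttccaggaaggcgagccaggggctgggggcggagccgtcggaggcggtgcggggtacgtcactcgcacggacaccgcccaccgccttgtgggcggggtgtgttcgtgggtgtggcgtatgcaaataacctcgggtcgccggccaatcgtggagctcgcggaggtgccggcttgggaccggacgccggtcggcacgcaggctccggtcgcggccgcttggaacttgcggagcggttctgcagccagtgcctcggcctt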
